A study of Mus musculus with 4 samples.

Results

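The 10 genes described here belong to the BCL2 family, which sets whether a cell commits to mitochondrial apoptosis: the survival genes Bcl2a1a, Bcl2a1b, Bcl2a1d, Mcl1 and Bcl2l1, the BH3-only genes Bcl2l11, Bbc3 and Pmaip1, and the effector genes Bax and Bak1. The rule that picks them uses their names and no measured value, though the list was drawn up with earlier results of these data known. They are 10 of the 24135 genes listed. Each RefSeq entry was mapped to its gene symbol, and a gene's FPKM is the sum over its entries. FPKM counts a transcript's fragments relative to its length and to sequencing depth, so levels of different genes can be set side by side per length.

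RNA was sequenced from bone marrow-derived macrophages of C57BL/6 mice that lacked the transcription factor Batf2 (Batf2-/-, here KO) or carried it (Batf2+/+, here WT). Marrow from femur and tibia was grown for 6 days in medium with 10% serum and 10 ng/ml GM-CSF, and the adherent cells were used. Per the labels, all cells received 10 ng/ml IFN-γ for 4 h and then 100 ng/ml LPS, a bacterial cell wall component, for 3 h or 0 h. The 4 groups were KO and WT cells at 3 h and KO and WT cells at 0 h, with 1 library each, so there was no replicate check and no test. The labels give neither the number of mice or cultures behind a library nor the deleted part of Batf2, and the deletion is not described as limited to 1 cell type.

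Proteins of the family meet at the outer membrane of the mitochondrion. Survival members hold the effectors BAX and BAK in check, BH3-only members bind the survival members or the effectors and release that check, and active BAX and BAK open the membrane so that cytochrome c reaches the caspase machinery. In macrophages and granulocytes the A1 proteins, encoded in the mouse by several nearly identical Bcl2a1 genes, are a known NF-kappaB-driven branch of the survival arm, and LPS is known both to induce survival genes and to prime death pathways.

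Sequencing depth, estimated from entries with a single read and counted in 1000000 reads, was 30.7 in KO and 20.3 in WT cells at 3 h, and 28.0 in KO and 24.8 in WT cells at 0 h. Total FPKM differed little, at 466419 to 476534. Batf2 itself had an FPKM of 10.1 in KO against 234 in WT cells at 3 h, and 0.259 in KO against 2.63 in WT cells at 0 h. The KO values were thus 23.2-fold lower at 3 h and 10.1-fold lower at 0 h. Cxcl9, a chemokine gene driven by IFN-γ, had an FPKM of 1058 in KO and 1249 in WT cells at 3 h, against 0.124 in KO and 0.624 in WT cells at 0 h. A difference between 3 h and 0 h below is therefore one between labelled times, and the parts of IFN-γ and LPS in it cannot be told apart. All 12 macrophage markers had an FPKM of at least 1 in each library, and their sum was 19140 in KO and 20361 in WT cells at 3 h, and 30155 in KO and 27742 in WT cells at 0 h. Lyz2 made up 75.3% to 78.7% of these sums, and at 3 h 8 of the 12 markers were higher in KO, 1 of them (Cd14) past the size rule defined below. The sum of the 11 neutrophil markers used was 5011 in KO and 5263 in WT cells at 3 h, and 8646 in KO and 3495 in WT cells at 0 h.

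A difference was computed as log2(FPKM + 1) in the group named first minus that in the group named second, which understates the change of genes with low values. It passed the size rule when it was at least 1 in size, FPKM reached 1 in either library, and the 95% intervals deposited with the FPKM values did not overlap. Intervals in brackets are these, moved onto the FPKM where the deposited one was centred elsewhere. They cover the estimate within a library and not the spread between cultures. In bulk RNA, fewer cells of a type and less RNA per cell cannot be told apart.

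The 3 Bcl2a1 copies carry the clearest time difference of the 10 genes, and windows of their promoters are printed here to show how far their upstream sequence is shared. The transcripts of the copies are nearly identical as well, so reads may be divided between them and their values are not independent. Whether the marked matches are bound or used in these cells was not tested. The genes lie within 484543 bases of chromosome 9, with the protein-coding genes Trim43b and Trim43c between them. The windows are from RefSeq on GRCm38.p6 and run from 250 to 65 bases before each start site: chr9:88956670-88956855 on the plus strand for Bcl2a1a, chr9:89199023-89199208 on the plus strand for Bcl2a1b, and chr9:88731915-88732100 on the minus strand for Bcl2a1d. Capitals mark matches to GAGGAAGT, a PU.1 site, and to TGANTCA, a loose AP-1 pattern with any base in the middle. The usual AP-1 site, bound by the FOS, JUN and BATF families, has C or G there, and these 3 windows have A.
Bcl2a1a: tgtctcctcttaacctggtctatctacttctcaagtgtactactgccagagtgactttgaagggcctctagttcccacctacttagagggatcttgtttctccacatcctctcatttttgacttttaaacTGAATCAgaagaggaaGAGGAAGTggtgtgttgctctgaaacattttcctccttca
Bcl2a1b: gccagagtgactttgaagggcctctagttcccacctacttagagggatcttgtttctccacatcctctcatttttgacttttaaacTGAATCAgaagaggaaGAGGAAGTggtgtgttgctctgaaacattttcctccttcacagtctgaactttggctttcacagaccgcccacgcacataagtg
Bcl2a1d: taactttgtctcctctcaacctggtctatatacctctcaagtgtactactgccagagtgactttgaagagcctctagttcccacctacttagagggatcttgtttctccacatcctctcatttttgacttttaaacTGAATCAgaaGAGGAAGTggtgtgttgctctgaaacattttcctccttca

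Each of the 3 windows holds the letters TGAATCA followed by 1 PU.1 match, and the matches do not overlap. The TGAATCA match starts 120 bases before the start site in Bcl2a1a, 164 in Bcl2a1b and 114 in Bcl2a1d. The PU.1 match starts at 104, 148 and 104 bases in the same order of genes. Identity was taken over the aligned bases of the 250 before each start, with gaps left out. It was 99.5% between Bcl2a1a and Bcl2a1b (206 bases), 97.5% between Bcl2a1a and Bcl2a1d (244), and 99.0% between Bcl2a1b and Bcl2a1d (200). Of the 250 bases, 20 in Bcl2a1a and 64 in each of Bcl2a1b and Bcl2a1d lie in annotated untranslated exon sequence. Searched on both strands, TGANTCA occurs in the 250 bases before the start in 6.75% of 32851 mouse promoters and GAGGAAGT in 2.44%. A loose NF-kappaB site, GGG and CC with any 5 bases between them, is found in 45.8% of promoters, and an interferon response element, GAAA and GAAA with any 2 bases between them, in 2.98%. Neither is in the 250 bases before any of the 3 starts. Windows were read for 9 of the 10 genes, all but Pmaip1. In the windows of the other members, TGANTCA was found in none, and GAGGAAGT once, before Bak1. The Bcl2a1 windows hold less G and C, at 44.8% to 45.2%, than those of the Mcl1 entry (64.4%), of the 2 Bcl2l11 entries above 0 (72%) and of the Bbc3 entry (76.4%). The windows before the outer Bcl2l1 start (47.6%) and before Bax (54%) were closer to them.

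Bcl2a1b was the most abundant of the 10 genes in every library. Its FPKM was 899 (880 to 919) in KO and 814 (792 to 835) in WT cells at 3 h, against 374 (361 to 388) in KO and 327 (315 to 340) in WT cells at 0 h. Both 3 h libraries thus stood above both 0 h libraries, with KO a little above WT at each time. By FPKM it ranked 65 of 9501 genes in KO and 75 of 9587 in WT cells at 3 h, and 166 of 10704 in KO and 184 of 10564 in WT cells at 0 h. Bcl2a1d had an FPKM of 644 in KO and 579 in WT cells at 3 h, against 231 in KO and 215 in WT cells at 0 h. Bcl2a1a followed with 598 in KO and 543 in WT cells at 3 h, against 221 in KO and 206 in WT cells at 0 h. The order Bcl2a1b, Bcl2a1d, Bcl2a1a was the same in the 4 libraries.

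All 3 copies were higher at 3 h and passed the size rule in both genotypes, as did 7.86% of all genes tested in KO and 7.57% in WT cells. For Bcl2a1d the 3 h minus 0 h difference was 1.48 in KO (2.79-fold) and 1.43 in WT cells (2.70-fold). For Bcl2a1a it was 1.43 in KO (2.71-fold) and 1.40 in WT cells (2.64-fold), and for Bcl2a1b 1.26 in KO (2.40-fold) and 1.31 in WT cells (2.49-fold). These differences exceeded those of 93.7% to 94.7% of the genes tested. KO minus WT was small and positive for each copy, at 0.14 to 0.15 at 3 h and 0.10 to 0.19 at 0 h.

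**Figure D1:**
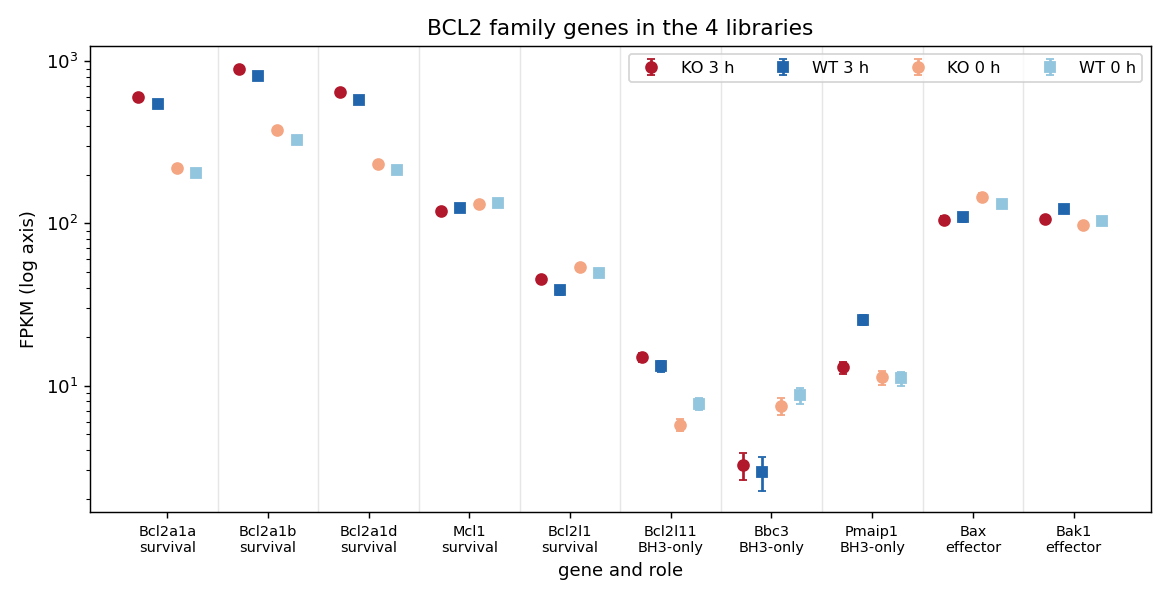
FPKM (log axis) of the 10 BCL2 family genes in the KO and WT libraries at 3 h and at 0 h, with bars for the deposited 95% intervals moved onto the FPKM. The Bcl2a1 genes lie highest, at 206 to 899, the BH3-only genes lowest, at 2.92 to 25.5, and Pmaip1 stands apart in WT cells at 3 h.

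How reads divide between the copies is uncertain. Their transcripts are 98.2% (Bcl2a1a and Bcl2a1b), 98.8% (Bcl2a1a and Bcl2a1d) and 99.1% (Bcl2a1b and Bcl2a1d) identical, and 57.6% to 79.5% of the 50-base stretches of a copy occur in another copy as well. The sources used here do not give the read length. The sum of the 3 does not depend on that split, but may depend on how reads that match several genes were counted. It was 2141 (2112 to 2170) in KO and 1936 (1900.4 to 1971) in WT cells at 3 h, against 826 (807 to 845) in KO and 747 (728 to 767) in WT cells at 0 h. The 3 h over 0 h fold of the sum was 2.59 in KO (2.52 to 2.66) and 2.59 in WT cells (2.51 to 2.67). KO over WT was 1.11 at 3 h and 1.11 at 0 h. These folds are for the values as deposited and depend on how the libraries are scaled. Bcl2a1b made up 42.0% of the sum in KO and 42.0% in WT cells at 3 h, and 45.3% in KO and 43.8% in WT cells at 0 h. Exons of Bcl2a1b also overlap those of Gm29094 on the same strand, over at most 401 bases.

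Mcl1, a short-lived survival protein needed by most blood cells, was almost level across the libraries. Its FPKM was 118 in KO and 125 in WT cells at 3 h, against 132 in KO and 133 in WT cells at 0 h. Its 3 h minus 0 h difference was -0.15 in KO and -0.09 in WT cells. For Bcl2l1, which encodes BCL-XL, the FPKM was 45.3 (43.1 to 47.4) in KO and 38.7 (36.4 to 41.0) in WT cells at 3 h, against 53.8 in KO and 49.4 in WT cells at 0 h. Its 3 h minus 0 h difference was -0.24 in KO and -0.35 in WT cells, and KO minus WT was 0.22 at 3 h and 0.12 at 0 h. Neither gene passed the size rule in any comparison.

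The direction given for Mcl1, Bcl2l1 and Bax depended on scaling. The median 3 h minus 0 h difference over all genes tested was -0.64 in KO and -0.54 in WT cells. When libraries were rescaled to a median ratio of 1 over genes with an FPKM of at least 5, the difference of Mcl1 became 0.32 in KO and 0.30 in WT cells, and that of Bcl2l1 0.22 in KO and 0.04 in WT cells, so the direction of both turned. The differences of the Bcl2a1 copies became larger, at 1.74 to 1.95 in KO and 1.70 to 1.82 in WT cells. The position of Mcl1 and Bcl2l1 among all genes moved little. The difference of Mcl1 exceeded that of 75.5% of genes tested in KO and 75.3% in WT cells as deposited, and 76.4% in KO and 76.0% in WT cells after rescaling. That of Bcl2l1 exceeded 71.8% in KO and 62.5% in WT cells as deposited, and 73.2% in KO and 64.0% in WT cells after rescaling.

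The BH3-only genes were the least abundant of the 3 roles and the most varied. Their summed FPKM was 31.1 in KO and 41.5 in WT cells at 3 h, and 24.4 in KO and 27.4 in WT cells at 0 h. The survival genes summed to 2304 in KO and 2099 in WT cells at 3 h, and 1011 in KO and 930 in WT cells at 0 h. The effectors summed to 211 in KO and 232 in WT cells at 3 h, and 244 in KO and 235 in WT cells at 0 h. These sums are of values as deposited. On that scale the higher survival sum at 3 h lay in the Bcl2a1 genes, since Mcl1 and Bcl2l1 had a lower FPKM at 3 h than at 0 h. The direction of Mcl1 and Bcl2l1 turned after rescaling, as given above.

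Pmaip1, which encodes NOXA, a BH3-only protein that binds MCL1 and A1, showed the widest gap between the genotypes among the 10 genes. Its FPKM was 12.9 (11.8 to 14) in KO and 25.5 (23.6 to 27.4) in WT cells at 3 h, against 11.2 (10.1 to 12.3) in KO and 11 (9.91 to 12.2) in WT cells at 0 h. The WT library at 3 h stood above the other 3, whose intervals overlapped. The 3 h minus 0 h difference was 0.19 in KO (1.15-fold, 1.01 to 1.31) and 1.14 in WT cells (2.31-fold, 2.03 to 2.62), and the WT value passed the size rule. After rescaling it was 0.64 in KO and 1.51 in WT cells, and as deposited it exceeded that of 83.8% of the genes tested in KO and 93.0% in WT cells. KO minus WT at 3 h was -0.93 (-1.08 to -0.77), a level 1.97-fold lower in KO, just short of the size rule, and 1.14% of the genes tested had a more negative value. KO minus WT at 0 h was 0.02. The difference between the time responses, KO minus WT, was -0.95 (-1.19 to -0.70), with 1.70% of genes tested below it, and it was also short of the size rule.

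Bcl2l11, which encodes BIM, a BH3-only protein that binds every survival member, was higher at 3 h in both genotypes. Its FPKM was 14.9 (14 to 15.8) in KO and 13.1 (12.2 to 14.1) in WT cells at 3 h, against 5.72 (5.22 to 6.23) in KO and 7.71 (7.08 to 8.34) in WT cells at 0 h. KO cells were thus a little higher at 3 h and lower at 0 h. The 3 h minus 0 h difference was 1.24 in KO (2.60-fold), past the size rule, and 0.70 in WT cells (1.70-fold), which passed it after rescaling, at 1.06. The difference between the time responses was 0.54 (0.35 to 0.74), short of the rule but above that of 97.0% of genes tested. KO minus WT was 0.17 at 3 h and -0.37 (-0.52 to -0.22) at 0 h, where KO was 1.35-fold lower.

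Bbc3, which encodes PUMA, a p53 target, was lower at 3 h. Its FPKM was 3.23 (2.60 to 3.86) in KO and 2.92 (2.23 to 3.61) in WT cells at 3 h, against 7.45 (6.57 to 8.33) in KO and 8.69 (7.65 to 9.72) in WT cells at 0 h. The intervals of KO and WT overlapped at each time. The 3 h minus 0 h difference was -0.999 in KO (2.31-fold lower), just short of the size rule, and -1.31 in WT cells (2.97-fold lower), past it. After rescaling it was -0.62 in KO and -1.0 in WT cells. As deposited, 28.4% of the genes tested in KO and 12.6% in WT cells had a more negative difference, and the KO median over all genes was -0.64. Bbc3 had the lowest FPKM of the 10 genes at 3 h in both genotypes, whereas Bcl2l11 had the lowest at 0 h.

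**Figure D2:**
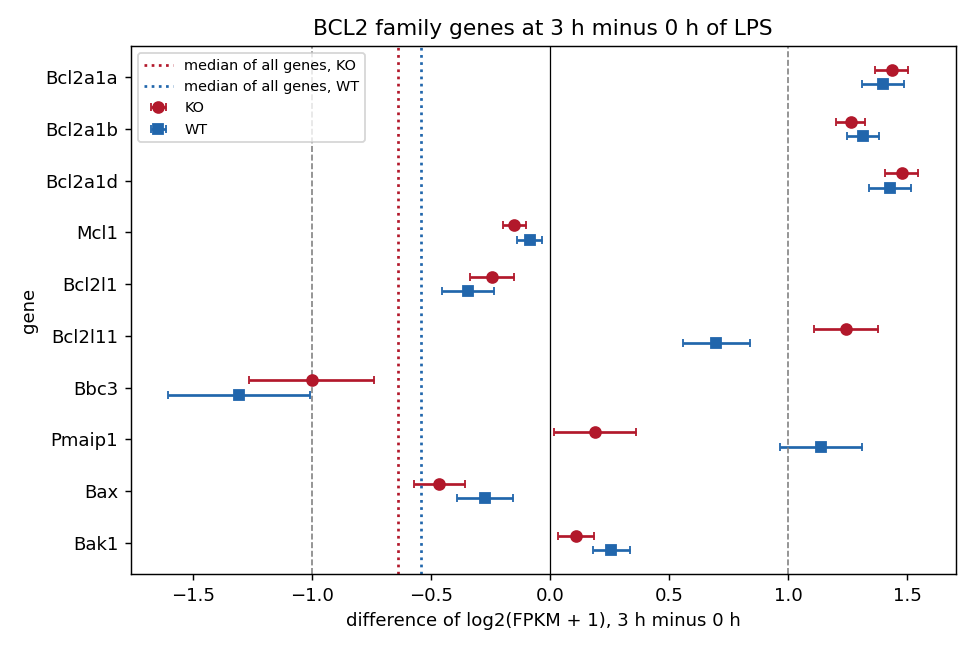
Difference of log2(FPKM + 1) between 3 h and 0 h for the 10 genes, in KO (circles) and WT cells (squares), with bars for the interval propagated from the deposited ones, dashed lines at the size rule of 1 and dotted lines at the median of all genes. The Bcl2a1 genes lie at 1.26 to 1.48 in both genotypes, and KO and WT are farthest apart for Pmaip1 (0.19 in KO, 1.14 in WT) and Bcl2l11 (1.24 in KO, 0.70 in WT).

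Neither effector passed the size rule in any comparison. Bax had an FPKM of 105 in KO and 109 in WT cells at 3 h, against 146 in KO and 132 in WT cells at 0 h. Its 3 h minus 0 h difference was -0.47 in KO and -0.27 in WT cells, and 0.01 in KO and 0.11 in WT cells after rescaling. KO minus WT at 3 h was -0.05, with an interval that included 0, and became 0.02 after rescaling. For Bak1 the FPKM was 106 (102 to 110) in KO and 123 (119 to 128) in WT cells at 3 h, against 98.1 in KO and 103 in WT cells at 0 h. Its 3 h minus 0 h difference was 0.11 in KO and 0.26 in WT cells, above those of 82.1% of the genes tested in KO and 84.1% in WT cells, and became 0.58 in KO and 0.64 in WT cells after rescaling. KO minus WT for Bak1 was -0.22 at 3 h and -0.07 at 0 h. Bak1 shares up to 257 exon bases with Ggnbp1 on the opposite strand and Bax up to 140 with Gm45808 on the same strand, and the sources used here do not say whether strand was used in counting.

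For 3 h minus 0 h, 4 of the 10 genes passed the size rule as higher in KO (the Bcl2a1 copies and Bcl2l11) and 0 as lower, against 7.86% higher and 28% lower of the 10963 genes tested. In WT cells 4 passed as higher (the Bcl2a1 copies and Pmaip1) and 1 as lower (Bbc3), against 7.57% higher and 23.2% lower of 10845. With rescaled libraries 4 of the 10 passed as higher and 0 as lower in KO, and 5, now with Bcl2l11, as higher and 1 as lower in WT cells. The shares of all genes were then 11.3% higher and 14.5% lower in KO, and 10.5% higher and 13.4% lower in WT cells. The 3 Bcl2a1 copies share most of their sequence. With them counted as 1 gene on the values as deposited, 2 passed as higher in KO and 2 in WT cells. That count was added after the values were seen. The median difference of the 10 was 0.15 in KO and 0.48 in WT cells, beside -0.64 in KO and -0.54 in WT cells over all genes.

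For KO minus WT, none of the 10 genes passed at 3 h, where 1.47% of 9808 genes did in either direction, and none at 0 h, where 1.72% of 10846 did. Both counts are near these shares, so they are no result about the family. The median of the 10 was 0.12 at 3 h and 0.06 at 0 h, beside -0.07 at 3 h and -0.00 at 0 h over all genes. For the difference between the time responses none passed, against 2.47% of 11128 genes, and the median was -0.01 beside -0.08.

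**Figure D3:**
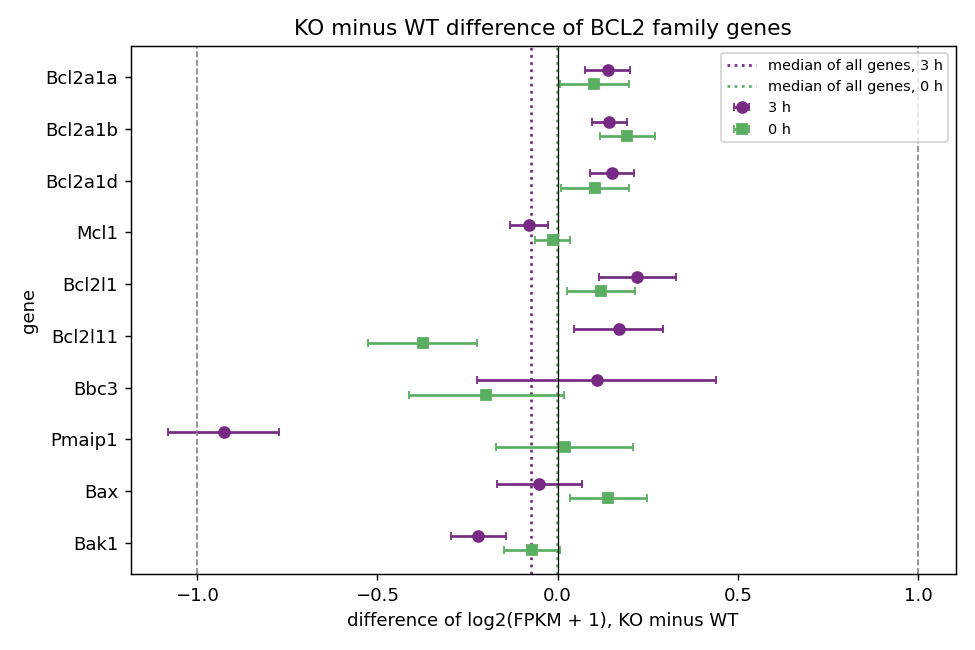
Difference of log2(FPKM + 1) between KO and WT for the 10 genes at 3 h (circles) and 0 h (squares), with bars for the propagated interval, dashed lines at the size rule of 1 and dotted lines at the median of all genes. Pmaip1 at 3 h lies at -0.93, close to the rule, Bcl2l11 changes side between 3 h (0.17) and 0 h (-0.37), and the rest lie between -0.22 and 0.22.

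At 0 h the libraries also differed in markers of other myeloid cells. Granulocytes are known to express Bcl2a1 genes and Mcl1 as well. All 11 neutrophil markers tested were higher in KO at 0 h, with 6 beyond the size rule and a median of 1.06. Among all genes tested at 0 h, 49.9% were higher in KO and 1.72% passed the rule in either direction. At 3 h the median of the 10 neutrophil markers tested was -0.01. The summed FPKM of 10 dendritic cell markers was 3851 in KO and 4256 in WT cells at 3 h, and 3270 in KO and 5235 in WT cells at 0 h. Ccl17, Ccl22 and Itgax made up nearly all of it, and the other 7 summed to 45.1 in KO and 37.1 in WT cells at 3 h, and 11.4 in KO and 20.5 in WT cells at 0 h. Markers of mast cells, basophils and eosinophils summed to 37.6 in KO and 46.7 in WT cells at 3 h, and 51.2 in KO and 33.4 in WT cells at 0 h, with the mast cell protease Cma1 listed at 0 in all 4 libraries. Stromal markers summed to 56.0 in KO and 36.3 in WT cells at 3 h, and 80.1 in KO and 36.8 in WT cells at 0 h, and T, B and NK cell markers to at most 5.96 in any library. Between the times, neutrophil markers went opposite ways in the genotypes: the median 3 h minus 0 h difference was -0.77 in KO and 0.35 in WT cells. Their difference between the time responses, KO minus WT, was negative for all 11 markers tested. Its median was -1.11, beside -0.08 over all genes, and 7 markers met the size rule. The part of these cells in the values of the 10 genes at either time was not tested. Nor was their part in the 3 h minus 0 h differences or the differences between time responses, those of Pmaip1 and Bcl2l11 included.

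Each Bcl2a1 gene, Mcl1, Bbc3, Pmaip1, Bax and Bak1 had 1 RefSeq entry, while Bcl2l1 and Bcl2l11 had several, of which 2 each were above 0. Bcl2l1 runs on the minus strand of chromosome 2, and its entries begin at 2 start sites, at 152831728 for NM_009743 and at 152830717 for NM_001289716. NM_009743 had an FPKM of 40.3 in KO and 28.6 in WT cells at 3 h, against 44.5 in KO and 42.2 in WT cells at 0 h. NM_001289716 had 4.97 in KO and 10.1 in WT cells at 3 h, against 9.32 in KO and 7.22 in WT cells at 0 h. The WT library at 3 h was thus the lowest for the outer start and the highest for the inner one. The inner entry made up 11% of the gene's FPKM in KO and 26.0% in WT cells at 3 h, and 17.3% in KO and 14.6% in WT cells at 0 h. For it, KO minus WT was -0.89 at 3 h, a level 2.02-fold lower in KO, and 0.33 at 0 h. Its difference between the time responses was -1.22 (-1.54 to -0.90), past the size rule, while that of the outer entry was 0.41 (0.25 to 0.56). An FPKM of 1 entry rests on how Cufflinks divided reads among overlapping transcripts, so these values are less firm than those of the gene.

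Of the 5 Bcl2l11 entries 3 were listed at 0, and the other 2 share a start site. NM_207680 had an FPKM of 6.88 in KO and 5.42 in WT cells at 3 h, against 3.21 in KO and 4.35 in WT cells at 0 h. NM_207681 had 8.02 in KO and 7.72 in WT cells at 3 h, against 2.51 in KO and 3.36 in WT cells at 0 h. Both were higher at 3 h, by 0.90 in KO and 0.26 in WT cells for NM_207680 and by 1.36 in KO and 0.999 in WT cells for NM_207681, of which the 1.36 passed the size rule. The KO and WT values of NM_207681 at 3 h were almost equal, so the genotype gap at 3 h lay in NM_207680.

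**Figure D4:**
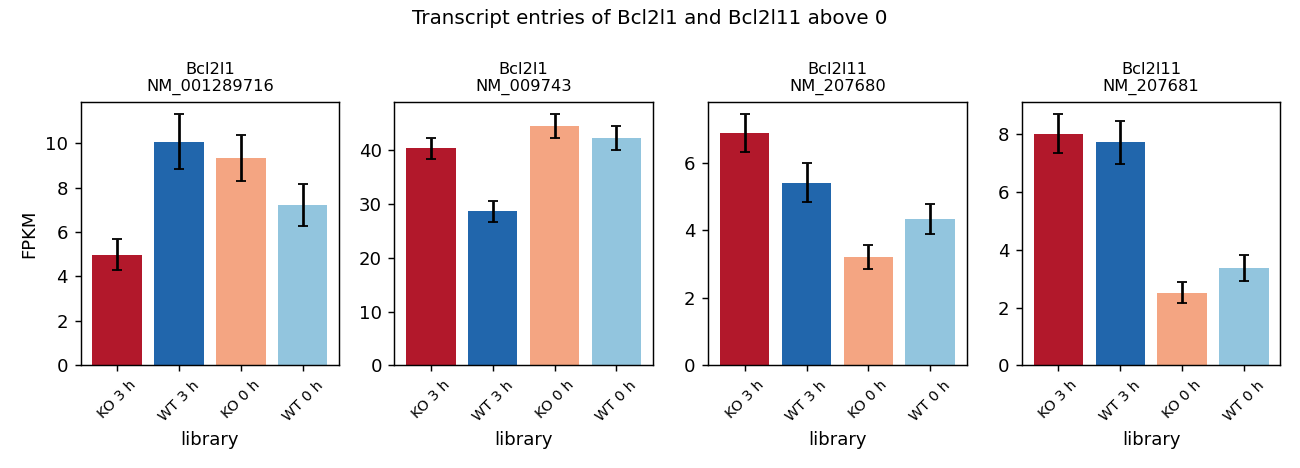
FPKM of the transcript entries of Bcl2l1 and Bcl2l11 that were above 0, by library, with bars for the deposited 95% intervals moved onto the FPKM. NM_001289716 of Bcl2l1 is lowest in KO at 3 h (4.97) and highest in WT at 3 h (10.1), whereas NM_009743 is lowest in WT at 3 h (28.6) and highest in KO at 0 h (44.5).

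The wider family was read from a list of 16 other relatives, of which 11 were tested for 3 h minus 0 h. In KO cells 1 passed as higher and 4 as lower, with a median of -0.79, and in WT cells 2 as higher and 4 as lower, with a median of -0.49. Over all genes the shares were 7.86% higher and 28% lower in KO, and 7.57% higher and 23.2% lower in WT cells, so nothing particular to these relatives is read from their counts. Bcl2a1c, the copy outside the chromosome 9 cluster, had an FPKM of 36.4 in KO and 37.3 in WT cells at 3 h, against 16.3 in KO and 16.1 in WT cells at 0 h, and passed as higher by 1.11 in KO and 1.16 in WT cells. Its transcript is 95.3% to 96.4% identical to the other copies over 443 bases. Bcl2, the founding survival gene, was low, with an FPKM of 1.06 in KO and 1.51 in WT cells at 3 h, against 5.53 in KO and 6.49 in WT cells at 0 h. It was lower at 3 h by the size rule in both, with a difference of -1.66 in KO and -1.58 in WT cells. Bcl2l2, which encodes the survival protein BCL-W, stayed between 8.36 and 9.11 in the 4 libraries.

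Bmf, a BH3-only gene, had an FPKM of 0.154 in KO and 0.232 in WT cells at 3 h, against 2.04 in KO and 4.02 in WT cells at 0 h, and passed as lower with -1.40 in KO and -2.03 in WT cells. Bcl2l12 (-1.36 in KO, -1.60 in WT cells) and the mitophagy receptor gene Bnip3l (-1.15 in KO, -1.08 in WT cells) also passed as lower, Bnip3l no longer after rescaling. Bcl2l14 passed as higher in WT cells, by 1.14, at an FPKM of 0.475 in KO and 1.46 in WT cells at 3 h, against 0.10 in KO and 0.114 in WT cells at 0 h. Bad, whose protein is held inactive by survival signalling, had 14.6 in KO and 26.1 in WT cells at 3 h, against 26.5 in KO and 30.3 in WT cells at 0 h. Its KO minus WT difference at 3 h was -0.80, a level 1.79-fold lower in KO, which did not pass the size rule. Bid had 7.55 in KO and 8.68 in WT cells at 3 h, against 13.8 in KO and 12.6 in WT cells at 0 h. Bcl2l13 had 3.01 in KO and 3.18 in WT cells at 3 h, against 5.64 in KO and 5.18 in WT cells at 0 h. Bnip3 had 4.90 in KO and 6.25 in WT cells at 3 h, against 8.22 in KO and 6.14 in WT cells at 0 h. The other relatives were scarce: Bok was at most 1.04, Bik, Hrk and Bcl2l15 stayed under 1, and Bcl2l10 was listed at 0. For KO minus WT no relative passed, and at 3 h all 10 tested had a lower value in KO, as did 65.6% of all genes tested, with a median of -0.12 beside -0.07 over all genes. After rescaling 6 of the 10 were lower and 4 higher in KO.

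Further along the pathway, the list of caspase inhibitors and NF-kappaB survival genes stood highest. Of its 12 genes, 8 passed as higher at 3 h in KO and 9 in WT cells and none as lower, with medians of 2.06 in KO and 2.03 in WT cells. Among all genes tested, 7.86% passed as higher in KO and 7.57% in WT cells. This list, too, was chosen with earlier results of these data known. Tnfaip3, which encodes the NF-kappaB inhibitor A20, had an FPKM of 223 in KO and 217 in WT cells at 3 h, against 12.3 in KO and 13.2 in WT cells at 0 h. Gadd45b had 126 in KO and 99.0 in WT cells at 3 h, against 6.80 in KO and 4.29 in WT cells at 0 h. Traf1, a signalling adaptor of TNF receptors, had 136 in KO and 123 in WT cells at 3 h, against 9.14 in KO and 8.05 in WT cells at 0 h. All 3 were far higher at 3 h in both genotypes, with differences of 3.75 to 4.24.

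Of the 15 genes of caspase activation downstream of mitochondria, 1 passed as higher and 4 as lower in KO, and 1 as higher and 3 as lower in WT cells, with medians of -0.76 in KO and -0.46 in WT cells. The shares lower are near those of all genes, 28% in KO and 23.2% in WT cells, so the counts are no result about the list. The initiator caspase gene Casp9 had an FPKM of 1.38 in KO and 2.07 in WT cells at 3 h, against 14 in KO and 15.4 in WT cells at 0 h. Casp6 and the caspase-activated nuclease inhibitor gene Dffa passed as lower in both genotypes and Endog, which encodes a mitochondrial nuclease, in KO. After rescaling, 2 passed as higher and 2 as lower in KO, and 2 as higher and 1 as lower in WT cells, Casp6 and Dffa no longer among them.

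Of the death receptor and necroptosis genes, 11 were tested, and the same counts passed in both genotypes, 3 as higher and 1 as lower. Their medians were -0.06 in KO and -0.01 in WT cells. Among all genes tested, 7.86% passed as higher and 28% as lower in KO, and 7.57% as higher and 23.2% as lower in WT cells. The higher ones in the list were Zbp1, a sensor that triggers necroptosis (3.86 in KO, 4.08 in WT cells), the death receptor gene Fas (1.89 in KO, 2.04 in WT cells) and Mlkl, the necroptosis executor (1.14 in KO, 1.32 in WT cells). The lower one was the adaptor gene Fadd (-1.44 in KO, -1.38 in WT cells).

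Of the 12 p53 and stress genes, 1 passed as higher and 5 as lower in KO, and 1 as higher and 3 as lower in WT cells, with medians of -0.61 in KO and -0.53 in WT cells. These medians are near those of all genes, -0.64 in KO and -0.54 in WT cells, and nothing particular to the list is read from its counts. Cdkn1a, the p53 target that encodes the cell cycle inhibitor p21, had an FPKM of 754 in KO and 852 in WT cells at 3 h, against 204 in KO and 197 in WT cells at 0 h. Foxo3, whose protein is known to drive Bcl2l11 and Bbc3, had 1.88 in KO and 2.26 in WT cells at 3 h, against 15.0 in KO and 14.3 in WT cells at 0 h. Bbc3 and Foxo3 were both lower at 3 h, whereas Bcl2l11 was higher. Sesn2 and Zmat3 passed as lower in both genotypes, with Zmat3 at -2.24 in KO and -2.11 in WT cells. After rescaling, 3 passed as higher and 3 as lower in KO, and 2 as higher and 3 as lower in WT cells.

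In none of these 4 lists did a gene pass for KO minus WT. At 3 h the extremes in each list were Endog (-0.78) and Apaf1 (0.15), Traf2 (-0.02) and Gadd45b (0.34), Tnfrsf1a (-0.24) and Tnfrsf10b (0.28), and Trp53 (-0.34) and Atf3 (0.16). At 0 h the highest gene of the caspase activation list was Endog (0.21), and the extremes of the other lists were Traf2 (-0.15) and Gadd45b (0.56), Cyld (-0.06) and Fas (0.28), and Sesn2 (-0.24) and Ddit3 (0.36).

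**Figure D5:**
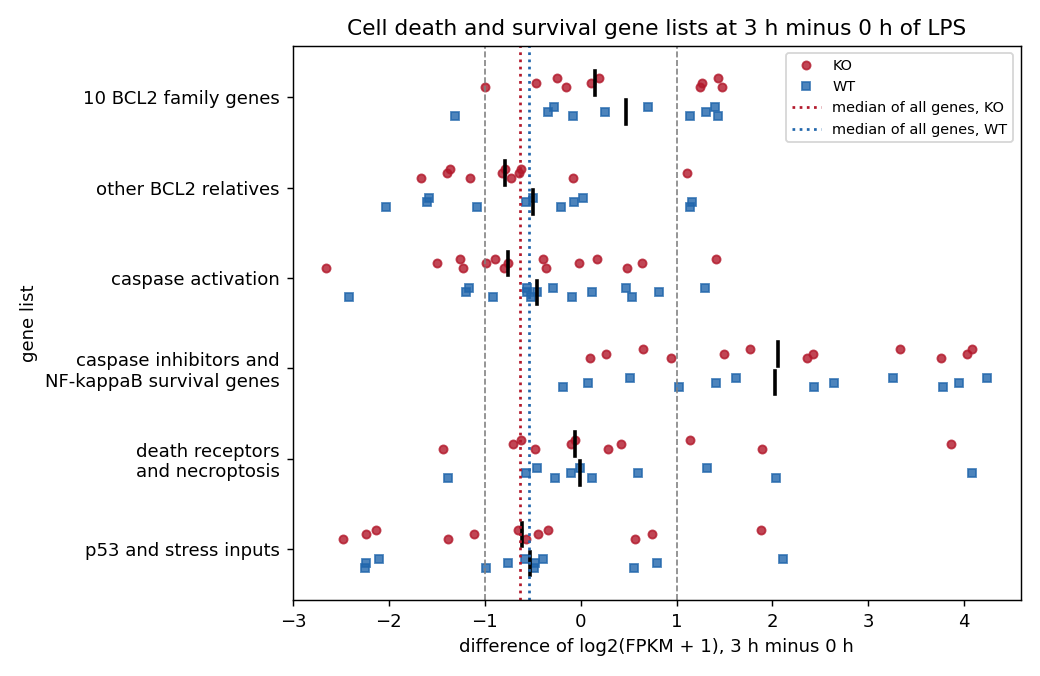
Difference of log2(FPKM + 1) between 3 h and 0 h for each tested gene of the 10 BCL2 family genes and 5 related lists, in KO (circles) and WT cells (squares), with black bars at the list medians, dashed lines at the size rule of 1 and dotted lines at the median of all genes. The caspase inhibitor and NF-kappaB survival list has its median at 2.06 in KO and 2.03 in WT cells, the 4 other lists have medians between -0.79 and -0.01, and the 10 genes have medians of 0.15 in KO and 0.48 in WT cells.

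Bcl2a1d had the largest 3 h minus 0 h difference of the 10 genes, and the genes nearest to its profile were sought among 8235 genes by the Euclidean distance between log2 values centred over the 4 libraries. Bcl2a1a was nearest (distance 0.038), followed by Bcl3 (0.052) and Ptprj (0.055). Bcl3, an atypical IkappaB gene, had an FPKM of 37.3 in KO and 34.2 in WT cells at 3 h, against 12.6 in KO and 12.2 in WT cells at 0 h. Ptprj, which encodes a receptor-type tyrosine phosphatase, had 142 in KO and 129 in WT cells at 3 h, against 52.3 in KO and 49.1 in WT cells at 0 h. With 4 libraries a short distance is a description of these values, and Bcl2a1a shares reads with Bcl2a1d.

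On GRCm38, the entries of the Bcl2a1 genes lay on chromosome 9 at 88956920 to 88962416 (Bcl2a1a), 89199273 to 89207838 (Bcl2a1b) and 88723288 to 88731850 (Bcl2a1d). Those of the other genes lay at 95658721 to 95663178 on chromosome 3 (Mcl1), 152758732 to 152831728 (Bcl2l1) and 128126038 to 128162547 (Bcl2l11) on chromosome 2, 16309583 to 16318334 (Bbc3) and 45461695 to 45466898 (Bax) on chromosome 7, and 27019812 to 27028626 on chromosome 17 (Bak1), with Pmaip1 on chromosome 18.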

How the data were processed

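Cultured macrophages were profiled by strand-specific, single-read RNA sequencing on an Illumina HiSeq instrument, per the labels. The deposited values are FPKM per RefSeq entry, each with an interval and a status. The submitters' processing notes name TopHat2, Bowtie, SAMtools and Cufflinks and the mm9 build, without versions. The loci fit GRCm38: of 33599 entries, 95.7% fell within the gene of that name on GRCm38, and 55.1% matched its start exactly after 1 was added, against 3.29% as given. Of 33841 entries, 402 to 435 per library had a status other than OK, none of them a member's.

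FPKM was summed per symbol, with half-widths of intervals combined in quadrature, in Python 3.11.15 with pandas 2.3.3 and numpy 2.4.6. Alignments used Biopython 1.88. Of the 12 member entries above 0, 6 had an FPKM outside their own deposited interval, by up to 1.35 times its midpoint and alike in all libraries, so each interval was centred anew on the FPKM, keeping its width relative to it. The size rule used a pseudocount of 1, an FPKM of at least 1 and a difference of at least 1, and was run over all genes. For the difference between time responses, the propagated interval had to exclude 0. The rule was also run on simulated data without spread between cultures and without reads shared between copies, so that run does not bear on those limits. With 1 library per group there was no test, culture and group cannot be told apart, and intervals cover the estimate within a library. Depth limits the low genes most.

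The members, lists and rules were chosen with earlier results of these data known. All 10 members, every relative, the list genes past the rule (at most 3 in each direction, or the extremes where none passed), Batf2 and the 3 genes nearest in profile to the member with the largest time difference were to be named; Cxcl9 and the markers were added. Ly6g was not analysed here, and 1 gene that the rule names is not reported here. The alternatives were other pseudocounts, filters, rescaled libraries and single entries.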

Additional observations from a re-analysis of the deposited data

Results flagged for a closer look

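Each of these pairs lay on opposite sides of 0 with both intervals, propagated from the deposited ones, excluding 0; the difference between the pair's values was not tested, since each rests on 1 library per group. For the Bcl2l1 entry with the inner start site, NM_001289716, the 3 h minus 0 h difference was -0.79 in KO and 0.43 in WT cells, and KO minus WT was -0.89 at 3 h and 0.33 at 0 h. For Bcl2l11, KO minus WT was 0.17 at 3 h and -0.37 at 0 h. Its entry NM_207680 gave 0.30 at 3 h and -0.34 at 0 h. The other entry above 0, NM_207681, is no such pair, at 0.05 at 3 h, with an interval that included 0, and -0.31 at 0 h. For Bnip3, which encodes a mitophagy receptor, KO minus WT was -0.30 (-0.59 to -0.009) at 3 h and 0.37 (0.12 to 0.62) at 0 h. The interval at 3 h thus only just excluded 0, and the value at 3 h was -0.24 after rescaling. Neutrophil marker sums were 5011 in KO and 5263 in WT cells at 3 h, and 8646 in KO and 3495 in WT cells at 0 h, and their part in these values was not tested.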

How the results depend on the processing

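No paired analysis was possible because each group holds 1 library, and for the same reason no replicate could be left out. With a pseudocount of 0.1, Bbc3 passed the size rule as lower at 3 h in KO, so that count became 1 in place of 0. With a pseudocount of 5, none of the 10 genes was lower at 3 h in WT cells, in place of 1, and Pmaip1 in WT cells (0.93) and Bcl2l11 in KO (0.89) no longer passed as higher. With the Bcl2a1 copies counted as 1 gene, chosen after seeing the data, 2 genes were higher in KO and 2 in WT cells, in place of 4 and 4. Rescaling the libraries by the median ratio changed the sign of 7 of 40 member values: Mcl1, Bcl2l1 and Bax for 3 h minus 0 h in both genotypes, and Bax for KO minus WT at 3 h. It also brought Bcl2l11 in WT cells past the rule. The highest entry alone, no filter on low values and an FPKM minimum of 5 changed no sign and no call of a member. Rescaling and the minimum of 5 were not run for the difference between time responses. No called value reversed under these alternatives. Depth limits Bbc3 most, with the widest relative intervals of the 10 genes.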
